A study of Rattus norvegicus with 8 samples.

Results

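The genes described here are the Id genes (Id1 to Id4) and 4 genes of the related Hes and Hey family (Hes1, Hes5, Hes6 and Hey1), whose RNA was sequenced from cultures of oligodendrocyte precursor cells (OPCs) of the rat, the glial cells that give rise to myelinating cells. They were taken by symbol from the deposited expression table, and all 8 were found among its 32883 genes. The libraries came from primary OPC cultures of the cerebral cortex of Sprague Dawley rats aged 1 to 2 days, 4 libraries from male and 4 from female animals. All cultures were grown alike. Mixed glia were kept in DMEM with 20% fetal bovine serum, and the cells that did not adhere were then grown on poly-DL-ornithine for 4 to 5 days in Neurobasal medium with 2 mM glutamine, 2% B27, PDGF and FGF at 10 ng/ml each, and antibiotics. PDGF and FGF are known to keep OPCs dividing, and no culture without them was analysed here. The cultures also held RNA of differentiating oligodendrocyte, neuron and microglia markers, whose levels are given with the other marker lists. Levels are FPKM, which is fragments scaled by transcript length and library size, so levels of different genes are compared per length. Since no label tells whether libraries of 1 sex are separate animals or litters, the p-values reflect the spread among these libraries alone, and that spread may be technical.

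Id proteins carry a helix-loop-helix domain without the basic region that binds DNA. They pair with E proteins (the products of Tcf3, Tcf4 and Tcf12) and so keep these from working with activators such as OLIG proteins. Id genes are classical targets of BMP signalling through SMAD proteins, and ID2 and ID4 are known to hold back oligodendrocyte differentiation. HES1, HES5 and HEY1 are DNA-binding repressors with a basic helix-loop-helix domain, classically induced by Notch signalling through the factor RBPJ, and HES5 is known to repress myelin genes. HES6 is the exception in the group, since it is known to oppose HES1 and not to need Notch for its expression.

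The stretches before the start sites are shown for the letters that RBPJ, the factor through which Notch acts, is known to recognise. The 250 bases before the start of the gene are given 5′ to 3′ from RefSeq (assembly GRCr8) for Hes1 and Hes5, and for Hes6 and Id2, which had the highest levels. Capitals mark TGGGAA, the core of the RBPJ motif, or TTCCCA, the same on the other strand.
Hes1 (chr11:84213046-84213295, minus strand): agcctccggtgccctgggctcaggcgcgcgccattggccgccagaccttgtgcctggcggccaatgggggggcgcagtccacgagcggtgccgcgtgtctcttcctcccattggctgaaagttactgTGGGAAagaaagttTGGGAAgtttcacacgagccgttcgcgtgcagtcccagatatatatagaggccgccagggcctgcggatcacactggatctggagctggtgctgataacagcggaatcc
Hes5 (chr5:170804327-170804576, plus strand): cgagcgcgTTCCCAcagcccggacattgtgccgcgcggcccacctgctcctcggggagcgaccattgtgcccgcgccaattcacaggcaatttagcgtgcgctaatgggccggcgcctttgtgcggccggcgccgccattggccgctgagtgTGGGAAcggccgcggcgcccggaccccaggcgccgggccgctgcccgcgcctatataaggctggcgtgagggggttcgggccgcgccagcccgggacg
Hes6 (chr9:99451097-99451346, minus strand): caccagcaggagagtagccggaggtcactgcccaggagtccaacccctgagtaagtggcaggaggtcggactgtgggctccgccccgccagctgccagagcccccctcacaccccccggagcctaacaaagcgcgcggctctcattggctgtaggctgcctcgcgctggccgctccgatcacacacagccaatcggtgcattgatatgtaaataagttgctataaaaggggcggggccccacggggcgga
Id2 (chr6:47470996-47471245, minus strand): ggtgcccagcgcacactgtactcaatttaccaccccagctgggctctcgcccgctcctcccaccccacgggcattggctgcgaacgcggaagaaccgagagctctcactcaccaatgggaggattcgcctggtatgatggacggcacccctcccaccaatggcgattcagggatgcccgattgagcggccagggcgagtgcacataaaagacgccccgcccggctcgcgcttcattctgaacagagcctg
In Hes1 the match lies 123 and 109 bases before the start, counted to its first base, and in Hes5 it lies 242 and 98 bases before it. No match was found in the same window of Hes6, Id1, Id2, Id3 or Id4. The RefSeq promoter table held 7 of the 8 genes, all but Hey1. Of 33469 rat promoters of this length, 22.1% hold the motif on either strand, so its presence in 2 of 7 is near the background and its absence from the others sets none of them apart. The BMP-linked motif GGCGCC, which reads the same on both strands, was found 4 times in Hes5 and in none of the Id promoters, and 8.70% of promoters hold it. The N box CACNAG, to which HES proteins bind, was found 4 times in Hes1, once in Hes6 and in none of the others, against 37.2% of promoters (either strand, no overlap with TGGGAA). A match describes letters in this window and not a bound site.

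The 8 genes fell into 2 abundant and 6 low members. Id2 had the highest mean over the 8 libraries (75.3 ± 6.60 FPKM, SD, n = 8), followed by Hes6 (52.5 ± 6.25 FPKM). Id1 (6.67 ± 1.31 FPKM), Hey1 (6.11 ± 1.91 FPKM), Id4 (3.47 ± 1.06 FPKM) and Id3 (2.57 ± 0.806 FPKM) came next. Hes1 (1.69 ± 0.859 FPKM) and Hes5 (1.36 ± 0.879 FPKM) were lowest. Id2 made up 82.5 to 87.3% of the summed FPKM of the 4 Id genes in each library, and Hes6 made up 81.0 to 90.0% of that of Hes1, Hes5, Hes6 and Hey1. The gap between Hes6 and Id1 was the widest step in the order, 7.87 times by their means. Neighbours in this order were compared within libraries by an exact two-sided sign-flip permutation test on log2 FPKM, whose smallest p over 256 sign assignments is 0.00781, with adjustment over the 7 pairs. Id2 lay above Hes6, Hes6 above Id1 and Hey1 above Id4 in 8 of 8 libraries each, with 1.43, 7.87 and 1.76 times the level (adjusted exact p = 0.0182 for each). The order was set by the means of these same libraries, so the p-values measure only how steadily it held across them. For the remaining neighbours the order did not exceed the spread. Id1 was above Hey1 in 5 of 8 libraries (adjusted exact p = 0.445), Id4 above Id3 in 7 (0.150), Id3 above Hes1 in 5 (0.164) and Hes1 above Hes5 in 6 (0.445).

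**Figure D1:**
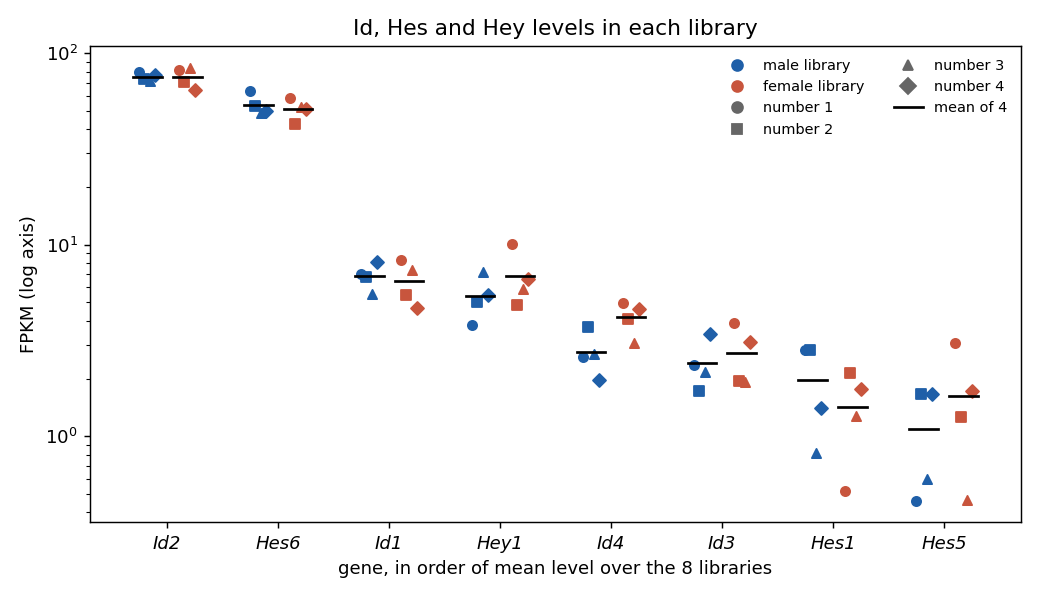
FPKM of each member (log axis) in each library, with genes in order of their mean over the 8 libraries, male libraries in blue, female libraries in red, a marker shape for each library number and a bar for the mean of 4. Id2 and Hes6 lie between 42.7 and 84.1 FPKM in every library, and all other points lie at or under 10.0 FPKM.

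None of the 8 members differed between male and female cultures by the test across all genes (limma-trend on log2(FPKM + 1), adjusted over 11263 genes, adjusted p under 0.05). Over all tested genes 6.04% were called (3.14% towards male and 2.89% towards female cultures), so that a count of 0 among 8 genes is near the background. At an unadjusted p under 0.05 there was 1 member, Id4, against 21.2% of all tested genes. In no member were all libraries of 1 sex above all those of the other, against 14.0% of tested genes. All 8 passed the filter of a mean of at least 1 FPKM. Differences are male minus female, in log2(FPKM + 1), and were positive in 4 and negative in 4, and their median was -0.05, where that of all tested genes was -0.0038. In bulk RNA fewer cells of a type and less RNA per cell cannot be told apart.

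The abundant pair, Id2 and Hes6, had the narrowest intervals for a difference between the sexes. Id2 (ENSRNOG00000007237) stood at 80.1, 73.1, 71.5 and 77.2 FPKM across male libraries 1 to 4 and at 81.3, 71.0, 84.1 and 64.0 FPKM across female libraries 1 to 4. The female libraries hold both the lowest and the highest value, and all 4 male values lie between them. Its means were 75.5 ± 3.92 against 75.1 ± 9.28 FPKM, with a log2 difference of 0.01 ± 0.09 (SE) and an unadjusted 95% interval of -0.19 to 0.21 (limma-trend adjusted p = 0.953). On this scale the interval runs from 0.879 to 1.16 times the female level. Hes6 (ENSRNOG00000020194) stood at 63.6, 53.1, 48.8 and 50.2 FPKM across male libraries 1 to 4 and at 58.2, 42.7, 52.2 and 51.2 FPKM across female libraries 1 to 4. Male 1 is the highest and female 2 the lowest, and the groups overlap over most of their range. The difference was 0.08 ± 0.11, with an interval of -0.16 to 0.32 (adjusted p = 0.744), or 0.894 to 1.25 times. Either sign of these differences falls within the spread, and both signs were found among the alternatives.

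Among the low Id genes, Id4 came closest to a call. Id4 (ENSRNOG00000016099) was listed at 2.60, 3.72, 2.67 and 1.97 FPKM across male libraries 1 to 4 and at 4.97, 4.11, 3.07 and 4.62 FPKM across female libraries 1 to 4. Female 3 lies below male 2, and otherwise each female value is above each male one. Means were 2.74 ± 0.724 against 4.19 ± 0.829 FPKM, a log2 difference of -0.48 ± 0.19 with an unadjusted interval of -0.89 to -0.07 (unadjusted p = 0.0252, limma-trend adjusted p = 0.164). Over 19 alternatives the difference stayed negative, from -0.61 to -0.25, and the adjusted p ran from 0.0889 to 0.390. Id1 (ENSRNOG00000021750) was listed at 7.03, 6.81, 5.55 and 8.11 FPKM across male libraries 1 to 4 and at 8.30, 5.48, 7.39 and 4.69 FPKM across female libraries 1 to 4. Both sexes spread over much the same range. Id1 gave 0.09 ± 0.18 (interval -0.29 to 0.48, adjusted p = 0.818). Id3 (ENSRNOG00000026124) was listed at 2.37, 1.71, 2.16 and 3.40 FPKM across male libraries 1 to 4 and at 3.92, 1.94, 1.92 and 3.10 FPKM across female libraries 1 to 4. Its highest values are in female 1 and male 4, and the difference was -0.11 ± 0.22 (interval -0.60 to 0.38, adjusted p = 0.830).

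Of all members, Hes5 and Hes1 varied most between libraries of the same sex, with coefficients of variation of 59.7 and 51.8% in male and 66.9 and 49.2% in female cultures. For Hey1 they were 26.5 and 32.8%. Hey1 (ENSRNOG00000011593) was listed at 3.79, 5.03, 7.24 and 5.45 FPKM across male libraries 1 to 4 and at 10.0, 4.83, 5.90 and 6.62 FPKM across female libraries 1 to 4. Female 1 is the highest and male 1 the lowest, and the other 6 libraries overlap. Hes1 (ENSRNOG00000001720) was listed at 2.81, 2.83, 0.814 and 1.40 FPKM across male libraries 1 to 4 and at 0.516, 2.13, 1.27 and 1.76 FPKM across female libraries 1 to 4. Here male 1 and male 2 are the highest and female 1 is the lowest. Hes5 (ENSRNOG00000013850) was listed at 0.461, 1.67, 0.600 and 1.65 FPKM across male libraries 1 to 4 and at 3.07, 1.26, 0.465 and 1.72 FPKM across female libraries 1 to 4. The highest library was 5.48 times the lowest for Hes1 and 6.65 times for Hes5, against 1.31 times for Id2 and 1.49 times for Hes6. Log2 differences were -0.29 ± 0.21 for Hey1 (interval -0.76 to 0.19), 0.27 ± 0.30 for Hes1 (-0.39 to 0.94) and -0.29 ± 0.33 for Hes5 (-1.02 to 0.44), with limma-trend adjusted p of 0.498, 0.663 and 0.677. The interval of Hes5 on this scale holds both 0 and the difference found for Id4 (-0.48), and the scale understates changes of a gene this low. With relative depth as a covariate the Hes5 difference turned positive (0.12, adjusted p = 0.869).

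**Figure D2:**
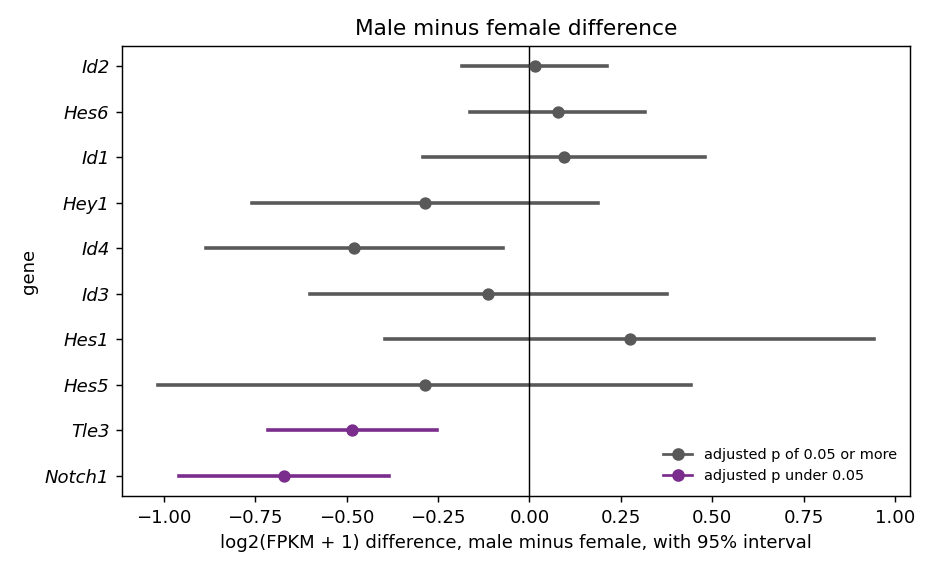
Difference in log2(FPKM + 1), male minus female (x axis), for the 8 members in order of level, and for Tle3 and Notch1, with points for the estimate and lines for the unadjusted 95% interval of the limma fit. Among the members the interval is narrowest for Id2 (-0.19 to 0.21) and widest for Hes5 (-1.02 to 0.44), and Tle3 and Notch1, in purple, are the 2 genes shown with an adjusted p under 0.05.

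The spread of the low members can be set beside the few steps that their values take. FPKM holds no counts, but its low values come in steps. Their size gives a relative depth, set to 1 in male 1 and lowest, at 0.303, in female 1. The FPKM of Hes5 multiplied by relative depth was 1, 2, 1 and 2 times a single step in male 1 to male 4 and 2, 1, 1 and 2 times in female 1 to female 4 (within 0.05). If a step is 1 fragment, Hes5 was seen with 1 or 2 fragments in each library. Its highest FPKM, 3.07 in female 1, is 2 steps in the library of lowest depth, while 2 steps gave 1.67 FPKM in male 2. Hes1 was 18, 10, 4 and 5 steps in male 1 to male 4 and 1, 5, 8 and 6 steps in female 1 to female 4. Id3 took from 3 to 10 steps and Id4 from 8 to 22, both as whole numbers in all 8 libraries. These are the smallest whole numbers that fit, so true counts could be multiples of them. For Id1, Id2, Hes6 and Hey1 no such step was found.

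**Figure D3:**
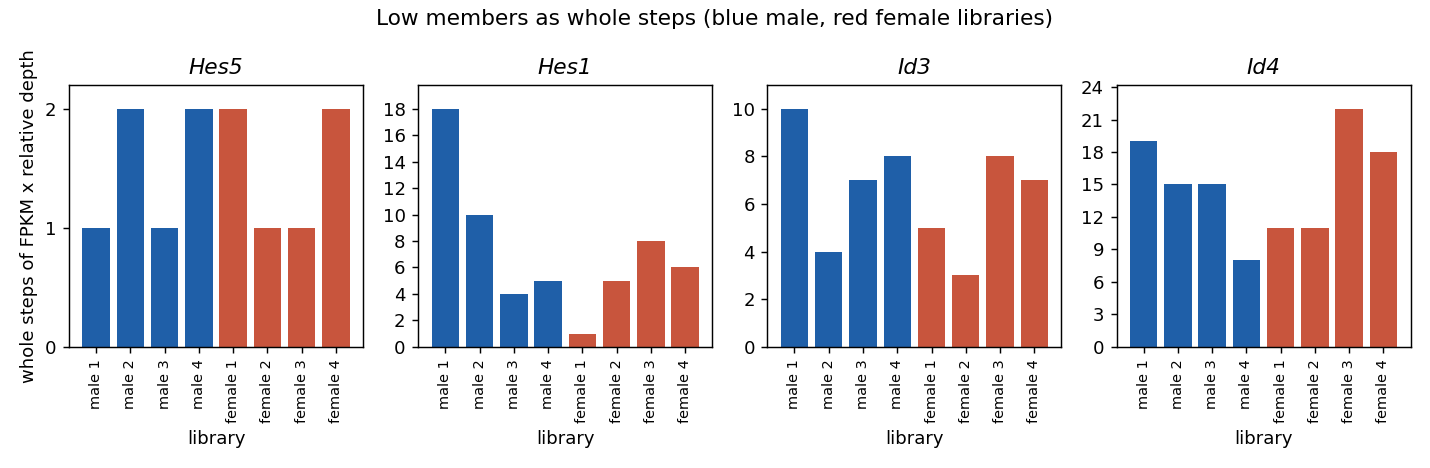
FPKM multiplied by relative depth, in whole steps (y axis, from 0, a scale of its own for each gene), for Hes5, Hes1, Id3 and Id4 in each library (x axis, blue male, red female). Hes5 takes only 1 or 2 steps, and Hes1 runs from 1 step in female 1 to 18 in male 1.

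Pooled by depth, the sexes were compared once more for these genes as values with no test. Hes5 had 6 steps over the 4 male and 6 over the 4 female libraries, whose summed relative depths were 2.88 and 2.18. Its depth-weighted level was 0.960 FPKM in male and 1.27 FPKM in female cultures, a ratio of 0.758, where the plain means give 0.673. Hes1 had 37 steps in male and 20 in female libraries, 2.01 against 1.43 FPKM, a ratio of 1.41 where the plain means give 1.38. Id4 had 57 and 62 steps, 2.71 against 3.89 FPKM, a ratio of 0.698 where the plain means give 0.654. Id3 had 29 and 23 steps, 2.39 against 2.49 FPKM, a ratio of 0.958 where the plain means give 0.886. Weighting by depth moved the ratios of Hes5, Id4 and Id3 towards 1 and that of Hes1 slightly away from it.

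Members were also compared with each other from library to library. Of 28 pairs, Id1 and Id2 had the highest correlation over the 8 libraries on the log2 scale (Pearson r = 0.883, exact permutation p = 0.00407, adjusted 0.0569; Spearman rho = 0.881, exact p = 0.00724, adjusted 0.150). Both were lowest in female 4, and without female 2 and female 4, the libraries farthest from the Id1 median, r was 0.697. Hes1 and Hey1 had the lowest (Pearson r = -0.898, exact permutation p = 0.00186, adjusted 0.0521; Spearman rho = -0.857, exact p = 0.0107, adjusted 0.150). Where Hes1 was highest, in male 1 and male 2, Hey1 was at 3.79 and 5.03 FPKM, and where Hes1 was lowest, in female 1 and male 3, Hey1 was at 10.0 and 7.24 FPKM. Without male 2 and female 1, r was -0.871. Neither pair passed adjustment over the 28 pairs. Each sex alone holds 4 libraries, too few for a correlation within sexes, and the libraries differ in depth.

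**Figure D4:**
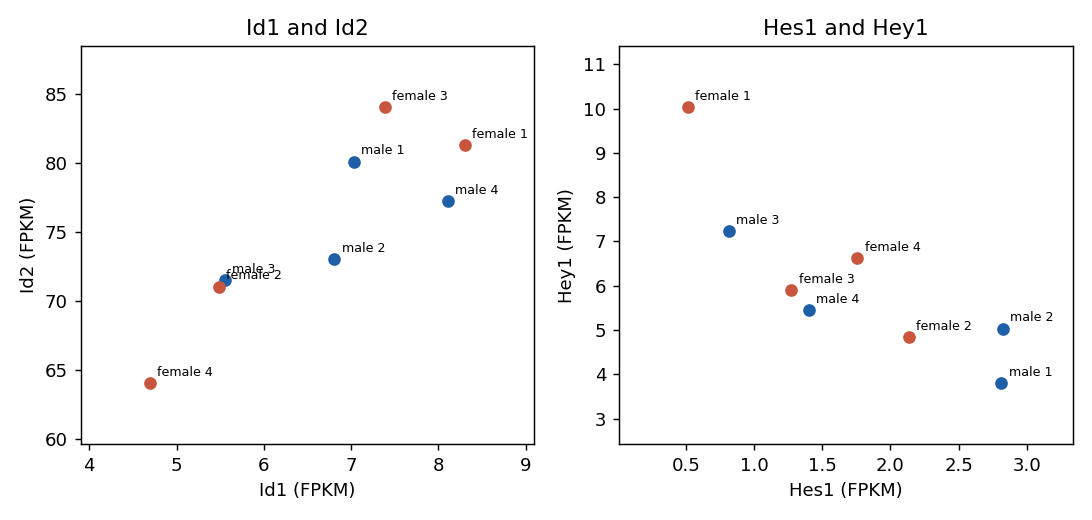
FPKM of Id2 against Id1 (left) and of Hey1 against Hes1 (right) in each of the 8 libraries, blue for male and red for female. Id1 and Id2 are both lowest in female 4, and Hey1 falls from 10.0 to 3.79 FPKM between female 1 and male 1 as Hes1 goes from 0.516 to 2.81 FPKM.

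Genes with the profile most like each member were taken by Pearson r over the 8 libraries among the 11262 other tested genes. With 8 points and so many genes, high values of r are the rule, and the libraries share depth and sex, so these are descriptions. They were Sfswap for Id1 (r = 0.987), the RNA-binding protein gene Msi1 for Id2 (0.975), Nup88 for Id3 (0.970), the phosphatase gene Ptpn6 for Id4 (0.976), Samm50 for Hes1 (0.957), Eml4 for Hes5 (0.970), Pianp for Hes6 (0.986) and Zfp329 for Hey1 (0.986). The other places ranged from 0.931 for Matn2 beside Id3 to 0.979 for Mfap3 beside Hey1. The microglial chemokine receptor gene Cx3cr1 was also among the 3 genes nearest to Id4 (r = 0.967). Of a list of 12 markers of microglia, the immune cells of the brain, 10 were tested and 7 called, all higher in female cultures. C1qa, C1qb and C1qc led the list, and over all tested genes 2.89% were called towards female cultures. Summed marker levels were 34.8 to 49.4 FPKM in male and 136 to 162 FPKM in female libraries. Id4 was listed at 1.97 to 3.72 FPKM in the former and 3.07 to 4.97 FPKM in the latter, and the part of microglia in this was not tested.

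The partners that Id proteins bind were far more abundant than the Id genes other than Id2, and none was called. Of 14 E protein and activator genes 7 were tested and 0 called, and the median of the list was -0.24, where that of all tested genes was -0.0038. At an unadjusted p under 0.05 there were 4, Tcf4, Tcf12, Olig2 and Atoh8, all on the female side, against 21.2% of all tested genes. Tcf3 stood at 26.3 ± 2.28 FPKM in male and 27.4 ± 0.540 FPKM in female cultures, Tcf4 at 73.9 ± 9.42 against 91.7 ± 8.0 FPKM (limma-trend adjusted p = 0.0967) and Tcf12 at 94.0 ± 12.8 against 114 ± 7.66 FPKM (adjusted p = 0.135). Summed over the 3 genes, E protein levels were 163 to 209 FPKM in male and 214 to 249 FPKM in female libraries. The sum of the 4 Id genes was 81.9 to 92.1 FPKM in male and 76.4 to 98.5 FPKM in female libraries. The ratio of E protein to Id levels was therefore 1.77 to 2.45 in male and 2.21 to 3.07 in female libraries, which overlap, and this ratio was not tested. Olig2, a lineage factor of OPCs, missed the threshold (258 ± 17.2 against 304 ± 11.7 FPKM, adjusted p = 0.0512).

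Of the Notch pathway upstream of Hes1, Hes5 and Hey1, the receptor gene Notch1 was higher in female cultures. Notch1 (ENSRNOG00000019322) stood at 11.8, 11.4, 13.9 and 13.2 FPKM across male libraries 1 to 4 and at 25.6, 19.8, 16.4 and 21.6 FPKM across female libraries 1 to 4. Every female library is above every male one, and 14.0% of tested genes had no overlap between the sexes in either direction. Means were 12.6 ± 1.15 against 20.8 ± 3.83 FPKM, a log2 difference of -0.67 ± 0.13 (limma-trend adjusted p = 0.0133). The call held in all 20 alternatives run (limma-trend adjusted p from 0.00544 to 0.0488), where the looser threshold of 0.1 could not have ended it. Notch1 was the 1 call among 24 tested genes of the list of receptors and their processing. The list had a median of -0.07 and 0 genes higher in male cultures, and 6.04% of all genes were called. The receptor gene Notch2 was low in both (1.45 ± 0.368 against 1.44 ± 0.442 FPKM). Among 8 tested ligand genes none was called (3 at an unadjusted p under 0.05, median -0.23), and the canonical ligand gene Dll1 missed the threshold (13.4 ± 0.811 against 18.5 ± 3.10 FPKM, adjusted p = 0.0644), as did Cntn1, a contactin gene that also encodes a Notch ligand (400 ± 38.8 against 490.0 ± 36.3 FPKM, adjusted p = 0.0586). None of 9 nuclear factor and feedback genes was called (4 at an unadjusted p under 0.05, median -0.30), and Rbpj itself stood at 33.2 ± 2.61 against 36.3 ± 2.08 FPKM (adjusted p = 0.434). Nrarp, a direct Notch target that feeds back on the pathway, stood at 9.07 ± 1.20 against 8.58 ± 1.65 FPKM (adjusted p = 0.815). Over all tested genes 21.2% had an unadjusted p under 0.05. Microglia markers, given above, and markers of OPCs and other cell types, given below, also differed between these cultures. All 7 measured OPC markers had a negative difference, with a median of -0.38. The part of these marker differences in the Notch1 difference was not tested.

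**Figure D5:**
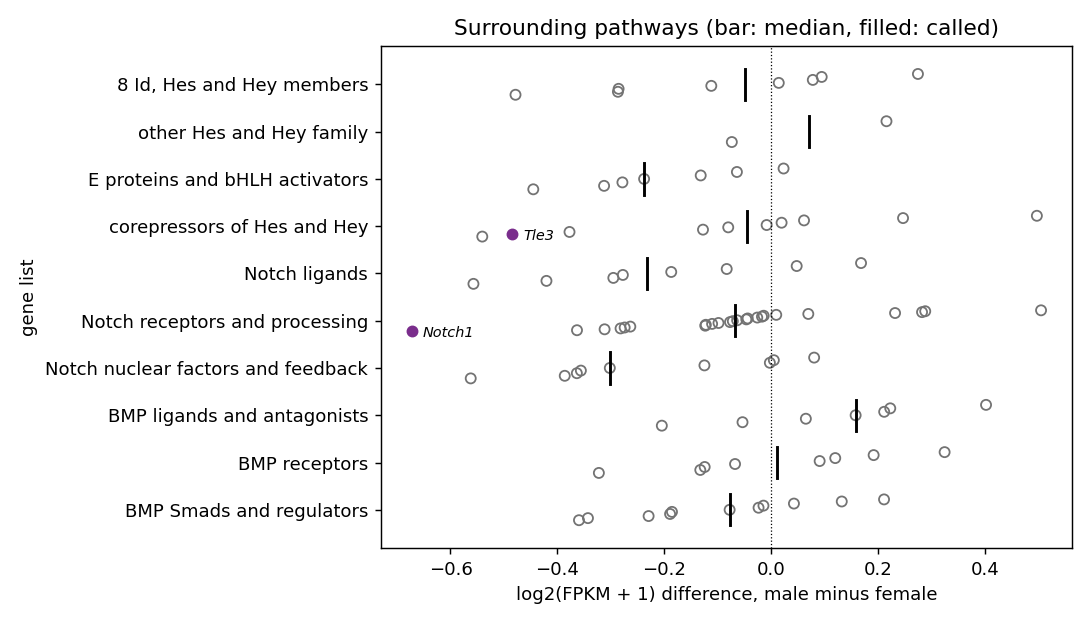
Difference in log2(FPKM + 1), male minus female (x axis), for each tested gene of the members and of 9 lists of surrounding genes (y axis), with a bar at each list's median and filled points for an adjusted p under 0.05. Notch1 and Tle3 are the 2 filled points, both on the female side.

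Corepressors that HES and HEY proteins recruit had 1 call among 10 tested genes, Tle3, a Groucho family gene (21.0 ± 1.56 FPKM in male and 30.0 ± 4.11 FPKM in female cultures, -0.48 ± 0.11 on the log2 scale, adjusted p = 0.0223 by limma-trend), with 0 higher in male cultures and a list median of -0.04, where 6.04% of all genes were called. Against 21.2% of all tested genes, 4 of the 10 had an unadjusted p under 0.05. Among them Tle1, another Groucho family gene and named after its values were seen, had the opposite sign (3.37 ± 0.349 FPKM in male and 2.14 ± 0.599 FPKM in female cultures, without overlap, 0.50 ± 0.18, adjusted p = 0.143 by limma-trend). Tle3 was listed at 23.1, 21.3, 20.4 and 19.5 FPKM across male libraries 1 to 4. Across female libraries 1 to 4 it was at 35.7, 25.9, 29.3 and 29.1 FPKM, with no overlap, as in 14.0% of tested genes. Leaving out male 2, male 3, male 4 or female 4 in turn ended its call, as did relative depth as a covariate (adjusted p up to 0.0700), while the difference stayed between -0.50 and -0.45 in these 5 fits. The short Groucho relative Aes, the most abundant of the list, was not called (626 ± 47.7 against 599 ± 31.9 FPKM, adjusted p = 0.669). Of a list of 8 other genes of or related to the Hes and Hey family, Hes2, Hes3, Hes7, Hey2, Heyl and Helt did not pass the filter. Only the related genes Bhlhe40 and Bhlhe41 passed it, and neither was called or had an unadjusted p under 0.05. Hes2, Hes3 and Helt were listed at 0 in all libraries.

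For the BMP pathway upstream of the Id genes, 0 of 7 tested ligand and antagonist genes, 0 of 8 receptor genes and 0 of 11 SMAD and regulator genes were called (limma-trend, adjusted p under 0.05), with 2, 0 and 1 at an unadjusted p under 0.05 and medians of 0.16, 0.01 and -0.08. Over all tested genes 6.04% were called and 21.2% had an unadjusted p under 0.05, so counts of 0 in lists this short are near the background. Only 7 of 21 ligand and antagonist genes passed the filter. The ligand gene Bmp7 was at 15.3 ± 1.44 FPKM in male and 11.4 ± 1.71 FPKM in female cultures (limma-trend adjusted p = 0.0882). Twsg1, of the same list, was at 28.4 ± 1.85 against 24.3 ± 0.590 FPKM (adjusted p = 0.148). Both were without overlap, as were 14.0% of all tested genes. Bmp4 was at 1.55 ± 0.215 against 1.95 ± 0.474 FPKM (adjusted p = 0.579). Receptor and SMAD genes were present, with Bmpr1a at 35.9 ± 6.52 against 38.7 ± 2.14 FPKM and Smad1 at 20.2 ± 1.31 against 21.3 ± 0.588 FPKM. Smad6, an inhibitory SMAD gene, was at 0 in 6 of 8 libraries.

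The labelled cell type could be checked by its markers. Olig1, Ptprz1 and Olig2 led the OPC list by level, and none of them was called. Its 7 measured genes summed to 2018 to 2134 FPKM in male and 2430 to 2683 FPKM in female libraries. Of the 7, 3 were called, all higher in female cultures. They were Pdgfra, Sox10 and Gpr17 (limma-trend adjusted p = 0.0103, 0.0327 and 0.00126). Differentiating oligodendrocyte markers summed to 680.3 to 824 against 931 to 1116 FPKM, with 3 of 11 tested genes called, all higher in female cultures. Astrocyte and radial glia markers, cells in which Id and Hes genes are also known to be expressed, summed to 1848 to 2001 FPKM in male and 1349 to 1628 FPKM in female libraries, most of it Vim and Fabp7, and 1 of 9 tested genes was called. That gene was Vim (965 ± 138 against 464 ± 128 FPKM, adjusted p = 0.0133). The astrocyte marker Gfap was between 0 and 4.98 FPKM. Neuron markers summed to 368 to 407 against 338 to 465 FPKM. Of 13 tested genes 4 were called, Gad1, Gad2, Syt1 and Stmn2, all higher in male cultures, while 5 of the 13 had a negative difference. Map2, the most abundant of them, was not called (150 ± 21.6 against 169 ± 50.9 FPKM, limma-trend adjusted p = 0.745). Endothelial markers, which matter for Id1 and Hey1 since vessels express both, summed to at most 0.476 FPKM, with Cldn5, Tek and Emcn at 0 in all libraries. Pericyte and fibroblast markers summed to at most 2.34 FPKM, with Kcnj8, Col1a2 and Dcn at 0. Over all tested genes 6.04% were called, 3.14% towards male and 2.89% towards female cultures. The part of the marker differences in the members' values was not tested.

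The libraries male 1 and female 3 deviated alike from their own groups (r = 0.242 across 11263 genes, the highest of 16 pairs of a male and a female library). Genes are no independent replicates. Male 1 and female 3 also had the highest relative depths, 1 and 0.981, followed by male 3 at 0.769. The part of depth in this likeness was not tested. Without both, 0 of 8 members were called where 7.81% of all genes were, and log2 differences were 0.15 for Id1, 0.04 for Id2, -0.22 for Id3, -0.58 for Id4, 0.12 for Hes1, -0.38 for Hes5, 0.01 for Hes6 and -0.21 for Hey1. Without each single library in turn no member was called either.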

How the data were processed

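RNA was measured in 8 libraries, 4 per sex, grouped and numbered by their titles. Per the file headers the authors deposited FPKM for each gene in each library, and the submitters' processing notes list Trimmomatic and FastQC with no version. The labels' protocols name a strand-specific Agilent SureSelect library kit. Not given in the sources used here are the aligner, quantifier, genome build, annotation and any use of strand in counting. Absolute depth is unknown, so no counting interval could be given. Each library's deposited FPKM added up to 648383 to 773919.

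Members and lists were chosen with earlier results of these data known. From the FPKM, log2(FPKM + 1) was computed and the 11263 of 32883 genes averaging 1 FPKM or more were tested with limma 3.58.1 in R 4.3.3 (trend, robust moderation, Benjamini-Hochberg adjustment, threshold 0.05). On this scale the change of low genes is understated. Tested on simulated data for male against female with 11263 genes, changes were added in log2(FPKM + 1) to genes drawn at random. The recovered share was 32.2% for changes of 0.5, 76.3% for changes of 1 and 94.8% for changes of 2. Of the calls, 2.72% were false. These shares average over genes of all levels and were not computed for low genes alone. Each run changed a smaller share of genes than the 6.04% called in the data. Noise was drawn independently for each gene and library, without the depth or likeness between libraries seen in the data. The shares in the data may therefore differ. Relative depth came from the most frequent ratio of low values between a library and male 1. Rbpj has more than 1 row, of which the one with the highest mean was used. Named were all members, up to 4 called genes per pathway list, up to 3 markers per list by level and the 3 genes most like each member. Other named genes were chosen after their values were seen. Promoters came from RefSeq (GRCr8) by symbol. Exact tests used Python 3.11.15. Alternatives covered pseudocounts, filters, normalization, moderation, a replicate block, depth, the threshold and libraries left out.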

Additional observations from a re-analysis of the deposited data

How the results depend on the processing

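No member was called in any of the 20 alternatives run, of which weighting libraries by relative depth was chosen after seeing the data. The count over all genes was 680 and moved to 397 with the replicate block, 367 with relative depth as a covariate, 1149 at an adjusted p threshold of 0.1 and 298 to 803 with 1 library left out. The cause was not tested. Differences of Id1, Id2, Id3, Hes5 and Hes6 changed sign in some alternatives, never past the threshold. Id2 gave -0.023 with quantile normalization, -0.016 with relative depth as a covariate and -0.0057 weighted by it. With that covariate Id3 gave 0.0038 and Hes5 0.12. With 1 library left out, Id1 ranged from -0.027 to 0.21, Id2 from -0.059 to 0.070, Id3 from -0.24 to 0.034 and Hes6 from -0.0040 to 0.14. Id4, Hey1 and Hes1 kept their sign in all alternatives. A change of filter, moderation, replicate block or threshold leaves the difference itself as it was, so no sign could change there. Id4 and the other members under 5 FPKM drop out at a mean of at least 5 FPKM. Deviations of same-numbered male and female libraries from their group means had r = -0.085, 0.077, -0.064 and 0.036 across genes for numbers 1 to 4. The labels do not say whether a number marks a pair. These values cannot decide it, since the libraries also differ in depth. Under the replicate block Id4 had an adjusted p of 0.246 and Notch1 one of 0.0471. How far depth limits each low member is not known from FPKM, since a step may stand for 1 fragment or more. Hes5 and Hes1 were as low as 1 step in a library and Id3 as low as 3.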

Other observations

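Hes7, the segmentation clock member of the family, had 0.338, 0, 0.439 and 1.21 FPKM across male libraries 1 to 4, and each female library lists it at 0. It was below the filter and not tested, and it was named after its values were seen. Male 2 also lists it at 0, and summed relative depth was 2.88 in male and 2.18 in female libraries. The part of depth in its values of 0 was not tested. Noggin (Nog), a secreted BMP antagonist, was also below the filter and was named after its values were seen. It had 1.51, 1.24, 0.712 and 1.23 FPKM across male libraries 1 to 4. Across female libraries 1 to 4 it had 0, 0.747, 0.836 and 1.03 FPKM. Its value of 0 is in female 1, the library of lowest relative depth (0.303). Hes6 exceeded Hes1 by 18.8 to 60.0 times in male and by 20.0 to 113 times in female libraries, the highest of them female 1, where Hes1 rests on 1 step. For the 8 members and for Notch1 and Tle3, 20 groups of 4 libraries were examined for a single outlying library by Dixon's criterion, and 0 were found.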
